A study of Mus musculus with 10 samples.

Results

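The genes described here are 9 feedback targets and transcription factors of canonical Wnt signalling: Axin2, Nkd1, Notum, Dkk1, Apcdd1, Rnf43, Znrf3, Lef1 and Tcf7. They were taken by gene symbol from a list, and all 9 were found among the 52459 symbols of the count table. RNA was sequenced from the wild-type mouse embryonic stem cell (ESC) line ES-Bruce4, of the C57BL/6 strain, as it was carried towards neuromesodermal progenitors (NMPs), posterior cells that give rise to spinal cord and trunk mesoderm. The question the series puts is how the transcriptome changed along this course and after the addition of Gdf11, a Tgf-β family growth factor that acts on posterior tissues of the embryo.

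Each of the 5 groups had n = 2 libraries, and all shared the same line, the N2B27 medium and human bFgf at 10 ng/ml from day 0. D2 was collected on day 2 and is labelled as ES-derived epiblast stem cells. D3, D6, D7G and D7 were collected on days 3, 6, 7 and 7 and are labelled as ES-derived NMPs. CHIR99021, an inhibitor of the kinase Gsk3, was given at 5 µM on day 2, and the cultures were split on day 3. D7G received 50 ng/ml human Gdf11 on day 6 for 24 h, and D7 did not. The labels do not say whether D2 was harvested before CHIR99021 was added or how long the inhibitor stayed on the cells. The B27 supplement was used with or without vitamin A, and which cultures had it is not said. All groups come from 1 ESC line grown on mouse embryo fibroblast feeders, which were depleted once before the start. Whether the 2 libraries of a group came from separate cultures is not stated. The p values therefore reflect how far such pairs of libraries differ, and that spread may be purely technical.

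In canonical Wnt signalling, a destruction complex built on Axin, Apc and Gsk3 marks β-catenin for degradation until a Wnt ligand binds a Frizzled receptor and its Lrp co-receptor. β-catenin then accumulates, enters the nucleus and binds Tcf and Lef factors at target genes. Many of these targets encode inhibitors of the pathway itself, acting outside the cell, at the receptors or on the destruction complex. Wnt signalling is known to maintain NMPs at the posterior end of the embryo, and inhibition of Gsk3 stabilises β-catenin without a ligand.

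Total gene counts lay between 31078950 and 33418015 per library, and 1 edgeR quasi-likelihood fit over all 10 libraries tested 18818 genes. Levels are in CPM (a gene's counts relative to the library total) scaled by TMM factors, fold changes are log2 values ± SE, and a gene was called where its Benjamini-Hochberg adjusted p over all tested genes was under 0.05. Primed epiblast markers summed to 2379 and 2383 CPM in D2, the highest of any group, and to between 205 and 466 CPM in the other libraries. NMP markers summed to 164 and 173 CPM in D2 and to between 308 and 967 CPM elsewhere. Sox2 made up nearly all of the D2 sum, at 163 CPM on average, while T, Cdx1, Cdx2 and Wnt3a were each under 1 CPM. Sox2 averaged 193 CPM in D7G and 232 CPM in D7, so the sums there also rest largely on it. In bulk RNA of this kind, fewer cells of a type and less RNA per cell cannot be told apart.

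Tcf and Lef factors recognise short sequences, among them the core CTTTGA, which reads TCAAAG on the other strand. These 2 spellings, and no other, were searched in the 250 bases before each RefSeq start site (GRCm38.p6). In all, 4544 of 32851 such windows held the core (13.8%), and 449 held it 2 or more times (1.37%). Windows of 6 of the 9 genes entered this search, 11 windows in total, and the other 3 genes were not searched. Windows of 2 genes, the receptor-blocking inhibitor Dkk1 and the factor Lef1, held the core, each with 2 matches. For Lef1 it was the most downstream of 4 start sites. These matches are shown with 12 bases on either side and the core in capitals, read 5′ to 3′ on the strand of the gene. The core begins 174 and 117 bases before the Dkk1 start, and 180 and 120 bases before this downstream Lef1 start. That Lef1 window (chr3:131156044-131156293) lies inside the span of the counted gene (chr3:131110471-131224356). The annotations differ for Dkk1: 169 of the 250 bases of its RefSeq window lie within the exon used for counting, which covers its match nearer the start and the last base of the other.

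Dkk1, chr19:30549653-30549682, minus strand: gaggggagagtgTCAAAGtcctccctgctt
Dkk1, chr19:30549596-30549625, minus strand: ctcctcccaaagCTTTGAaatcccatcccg
Lef1, chr3:131156102-131156131, plus strand: taaaatacatggTCAAAGgaaaataggtat
Lef1, chr3:131156162-131156191, plus strand: cattgtctgttcTCAAAGtcaggtcttgca

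The 250 bases before the start of Axin2, a widely used readout of the pathway, are given as well, because Axin2 and Notum had the widest rises of the 9 genes in D3 against D2 and Notum has no window. They hold neither spelling of the core, and their GC content is 69.2%.

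Axin2, chr11:108920099-108920348, plus strand: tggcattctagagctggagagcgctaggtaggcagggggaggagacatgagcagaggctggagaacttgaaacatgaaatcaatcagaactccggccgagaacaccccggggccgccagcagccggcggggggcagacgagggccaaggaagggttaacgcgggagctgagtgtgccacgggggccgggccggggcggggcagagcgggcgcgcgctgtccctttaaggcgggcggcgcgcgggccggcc

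The windows of Nkd1, Tcf7 and Rnf43 and the other Lef1 windows also lacked the core. The annotations differ here too, so not all of these lie upstream of the genes as counted. The upstream Rnf43 window lies wholly within counted exons (250 bases), and 67 bases of the downstream Tcf7 window do. The Nkd1 window (chr8:88527383-88527632) lies inside the span of the counted gene. A match is a run of letters and not a measured binding site. The lack of one says nothing about other spellings or about sites elsewhere in the gene.

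All 9 genes stood at their lowest mean level in D2. From there they followed different courses: Axin2 reached a plateau within 1 day, Notum and Nkd1 climbed over several days, Apcdd1 was highest by far with Gdf11, and Lef1 and Tcf7 kept within a narrower range. The plot of levels by library shows these courses.

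**Figure D1:**
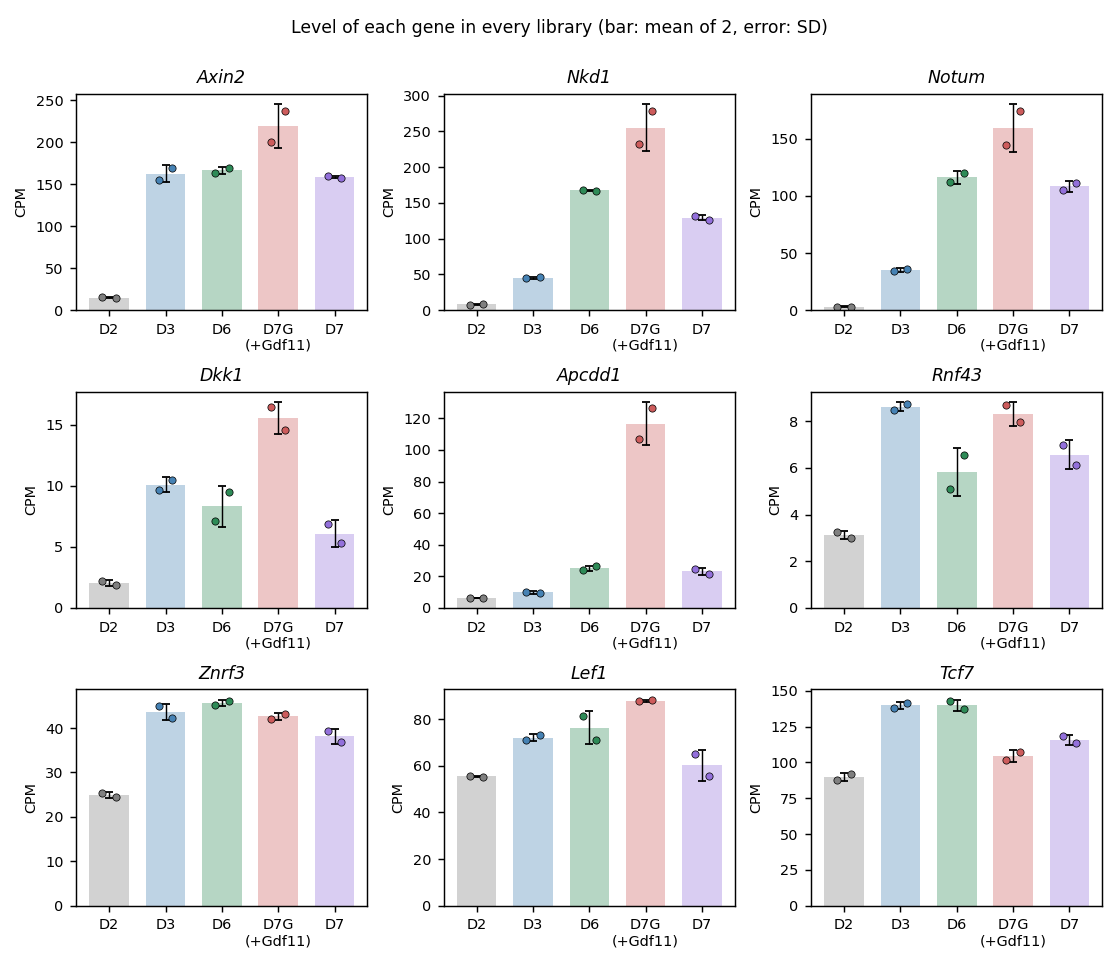
Level of each gene in CPM (vertical axis, linear from 0) in the 5 groups (horizontal axis). Points are the 2 libraries of a group, bars their mean and error bars the SD. Axin2 is flat from D3 to D7, Notum and Nkd1 step up again between D3 and D6, and the 2 D7G libraries of Apcdd1 (107 and 126 CPM) stand far above all others.

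Axin2 (chr11:108920349-108950783, plus strand, mm10) encodes a scaffold of the destruction complex and so limits β-catenin. Its level was 15.1 and 14.9 CPM in D2, 155.4 and 169.6 CPM in D3, and 163 and 169 CPM in D6. On day 7 it was 200.5 and 238 CPM in D7G, against 159 and 157 CPM in D7. The D2 libraries thus stood alone at the bottom and the D7G libraries alone at the top, while D3, D6 and D7 overlapped along the order of their means. The rise in D3 against D2 was 3.44 ± 0.08 (adjusted p = 2.48e-18), and neither D6 against D3 (0.03 ± 0.06, adjusted p = 0.629) nor D7 against D6 (-0.07 ± 0.06, adjusted p = 0.372) passed the test. Without either D7G library the small difference between D7 and D6 was just called, at -0.11, with adjusted p of 0.0491 to 0.67 over the 20 alternatives. With Gdf11 it rose by a further 0.47 ± 0.06 (adjusted p = 1.58e-06).

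Nkd1 (chr8:88521354-88594884, plus strand) encodes a cytoplasmic protein that binds Dishevelled and dampens the signal. It was measured at 7.34 and 8.46 CPM in D2, 44.3 and 46.5 CPM in D3, and 168 and 167 CPM in D6. The day 7 libraries had 232 and 279 CPM in D7G, against 131 and 127 CPM in D7. No neighbouring groups overlapped, so its order was D7G, D6, D7, D3 and D2. Unlike Axin2, it rose in both early steps, by 2.52 ± 0.10 in D3 against D2 and by 1.89 ± 0.07 in D6 against D3 (adjusted p = 2.81e-15). It fell in D7 against D6 (-0.38 ± 0.06, adjusted p = 6.2e-05) and was 1.98-fold higher with Gdf11 than without (0.98 ± 0.06, adjusted p = 6.46e-11).

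Notum (chr11:120653788-120661175, minus strand) encodes a secreted enzyme that removes the lipid from Wnt ligands and inactivates them. D2 had 3.11 and 2.70 CPM, D3 had 33.9 and 36.3 CPM, and D6 had 112 and 120.2 CPM. D7G libraries held 144 and 174 CPM, against 105 and 112 CPM in D7. D7 stood 37.2-fold above D2, the widest such gap among the 9 genes (5.22 ± 0.11). The groups did not overlap, although D6 and D7 nearly touched (112.1 CPM at the lowest in D6, 111.7 CPM at the highest in D7). Notum rose in D3 against D2 (3.59 ± 0.12), in D6 against D3 (1.73 ± 0.07) and in D7G against D7 (0.56 ± 0.06, adjusted p = 7.2e-07). The difference of D7 against D6 was -0.10 ± 0.06 and was not called (adjusted p = 0.246). It was called at -0.14 without either D7G library and at -0.13 with only the libraries of those groups (adjusted p 0.0235 to 0.656 over the alternatives). Of the exon bases counted for Notum, 29.4% also lie in the antisense transcript Notumos. Strand use is not given in the sources used here, so reads of the 2 cannot be told apart. A second deposited count table, by Ensembl gene, held 71.2% to 75.8% of the Notum counts, and Notum had the same calls there. Scaled by library totals, D6 (32.8 and 35.4 CPM per kb) and D7 (30.7 and 32.9 CPM per kb) overlapped in it.

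Dkk1 (chr19:30545863-30549665, minus strand) encodes a secreted protein that blocks the Lrp co-receptors. Its level was 2.19 and 1.88 CPM in D2, 9.65 and 10.5 CPM in D3, and 7.14 and 9.52 CPM in D6. With Gdf11 there were 16.5 and 14.6 CPM, against 6.85 and 5.33 CPM in D7. Its RefSeq window, like one of Lef1, has the 2 matches of the core printed above. D7G was highest, D2 lowest, and no neighbouring groups overlapped, although D3 and D6 nearly touched. Dkk1 rose in D3 against D2 (2.31 ± 0.17, adjusted p = 3.97e-10) and in D7G against D7 (1.35 ± 0.13, adjusted p = 4.82e-08). Between these steps its level is less certain. D6 against D3 gave -0.28 ± 0.13 (adjusted p = 0.0686), and a fall was called without D6 replicate 2 (-0.49), under library-total scaling (-0.35) and under upper-quartile scaling (-0.32), with adjusted p of 0.00569 to 0.636 over the alternatives. The fall in D7 against D6 (-0.45 ± 0.14, adjusted p = 0.0154) was -0.23 without D6 replicate 2 and -0.32 without D7 replicate 2, neither of them called, and -0.68 without D7 replicate 1 (adjusted p 0.0022 to 0.274).

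Apcdd1 (chr18:62922327-62953195, plus strand) encodes a membrane glycoprotein that binds Wnt ligands and Lrp co-receptors and inhibits the pathway. D2 libraries held 6.29 and 6.09 CPM, D3 libraries 10.3 and 9.25 CPM, and D6 libraries 23.8 and 26.2 CPM. On day 7 it reached 107 and 126 CPM in D7G, against 24.8 and 21.5 CPM in D7. The D7G libraries lay far above every other library, and D6 and D7 overlapped. Its rise with Gdf11 was 5.03-fold, the widest of the 9 genes (2.33 ± 0.08, adjusted p = 9.43e-15). The authors' deposited table, which gives changes against D2, lists log2 values of 4.18 for D7G and 1.87 for D7. Apcdd1 also rose in D3 against D2 (0.66 ± 0.13, adjusted p = 1.67e-04) and in D6 against D3 (1.35 ± 0.10, adjusted p = 3.08e-10). The difference of D7 against D6, -0.11 ± 0.09, was not called (adjusted p = 0.36). Apcdd1 was among the genes left out of the search for the Tcf and Lef core, so its presence there was not tested.

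Rnf43 and Znrf3 encode related membrane ubiquitin ligases that clear Frizzled receptors from the cell surface and that R-spondins and Lgr receptors hold back. Rnf43 (chr11:87662722-87735539, plus strand) had 3.24 and 3.00 CPM in D2, 8.49 and 8.76 CPM in D3, and 5.09 and 6.55 CPM in D6. It had 8.68 and 7.96 CPM in D7G, against 7.0 and 6.14 CPM in D7. D2 was lowest, D3 and D7G overlapped at the top, and D7 and D6 overlapped between them. Rnf43 rose in D3 against D2 (1.47 ± 0.14) and was the only one of the 9 called lower in D6 against D3 (-0.57 ± 0.12, adjusted p = 3.6e-04). Its rise with Gdf11, 0.34 ± 0.12 (adjusted p = 0.0264), was not called by DESeq2, without a filter on low counts, without D7 replicate 2 (0.22) or without D7G replicate 1 (0.25), with adjusted p of 0.0136 to 0.258 over the alternatives.

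Znrf3 (chr11:5276324-5444847, minus strand) had 25.4 and 24.4 CPM in D2, 44.9 and 42.3 CPM in D3, and 45.1 and 46.2 CPM in D6. It stood at 42.0 and 43.2 CPM in D7G, against 39.3 and 36.9 CPM in D7. Apart from the low D2 pair, its libraries spanned a narrow range, and D3 and D7G overlapped. It rose in D3 against D2 (0.81 ± 0.06, adjusted p = 3.08e-10), gave 0.06 ± 0.05 in D6 against D3 (adjusted p = 0.302), and fell in D7 against D6 (-0.26 ± 0.05, adjusted p = 9.36e-04). The rise with Gdf11, 0.16 ± 0.05 (adjusted p = 0.0232), was the least stable call of the 9. It was lost in 8 of the 20 alternatives: by DESeq2, without a filter, with only the libraries of both groups, and without D3 replicate 1 (0.14), D3 replicate 2 (0.14), D7 replicate 2 (0.09), D7G replicate 1 (0.16) or D7G replicate 2 (0.13), with adjusted p of 0.0206 to 0.32. Per exon length, Rnf43 stood at 22.7% and 24.9% of Znrf3 in D3, against 15.3% and 14.8% in D2. Rnf43 was the lowest of the 9 genes per exon length in every group.

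Lef1 and Tcf7 encode the DNA-binding partners of β-catenin, and both are also transcribed in response to the pathway in many tissues. Lef1 (chr3:131110471-131224356, plus strand) had 55.7 and 55.2 CPM in D2, 70.9 and 73.0 CPM in D3, and 81.3 and 71.2 CPM in D6. It had 87.6 and 88.2 CPM in D7G, against 64.9 and 55.5 CPM in D7. The D7G libraries were the highest, D6 and D3 overlapped, and D7 overlapped D2. Lef1 rose in D3 against D2 (0.38 ± 0.06, adjusted p = 4.72e-05), fell in D7 against D6 (-0.34 ± 0.06, adjusted p = 3.04e-04) and rose in D7G against D7 (0.55 ± 0.06, adjusted p = 7.66e-07). D6 against D3 (0.08 ± 0.06) was not called and became a call without D6 replicate 2 (0.18, adjusted p 0.0239 to 0.929 over the alternatives). D7 against D2 (0.12 ± 0.07) was likewise called with library totals (0.16) and without D7 replicate 2 (0.21, adjusted p 0.0105 to 0.788). A predicted antisense transcript, Gm43352, shares 13.7% of the Lef1 exon bases, and the second table held 69.8% to 73.9% of its counts.

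Tcf7 (chr11:52252371-52283014, minus strand) had 87.8 and 91.9 CPM in D2, 138 and 142 CPM in D3, and 143 and 137 CPM in D6. On day 7 there were 101 and 107 CPM in D7G, against 118 and 113 CPM in D7. D3 and D6 overlapped at the top, followed by D7, D7G and D2, which did not overlap. It rose in D3 against D2 (0.64 ± 0.04, adjusted p = 1.22e-10), gave 0.00 ± 0.04 in D6 against D3 (95% interval -0.08 to 0.08), and fell in D7 against D6 (-0.27 ± 0.04, adjusted p = 4.86e-05). With Gdf11 it was lower than without, by a small amount (-0.15 ± 0.04, adjusted p = 0.00843), opposite to Lef1.

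The other 2 members of the Tcf family were followed beside them. Tcf7l1, a factor known mainly as a repressor of pluripotency genes in ESCs, had 51.7 and 53.3 CPM in D2, 22.4 and 24.7 CPM in D3, and 19.9 and 20.0 CPM in D6. It had 27.0 and 26.4 CPM in D7G, against 19.9 and 22.9 CPM in D7. It fell in D3 against D2 (-1.16 ± 0.07, adjusted p = 8.34e-12), in the direction opposite to Lef1 and Tcf7. It rose with Gdf11 (0.32 ± 0.07, adjusted p = 0.0011), a call lost without D7 replicate 1 (0.20). Tcf7l2 averaged 12.5, 9.16 and 11.2 CPM in D2, D3 and D6, and on day 7 it averaged 14.3 CPM in D7G and 12.7 CPM in D7. Its difference between D7G and D7, 0.17 ± 0.09 (adjusted p = 0.167, 95% interval -0.02 to 0.36), was called without D7G replicate 2 (0.29). Ctnnb1, which encodes β-catenin, averaged 1377 ± 60.9 CPM in D7G and 1141 ± 0.675 CPM in D7 (SD, n = 2), a rise of 0.27 ± 0.03 (adjusted p = 3.01e-06), while D3 against D2 gave 0.06 ± 0.03 (adjusted p = 0.18).

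Set against exon length, Tcf7 was the most abundant of the 4 Tcf genes in every library. Its share of their summed level per exon length was 61.5% and 62.2% in D2, 78% and 77.5% in D3, and 77.6% and 78.4% in D6. That share was 67.4% and 69.2% in D7G, against 76.3% and 76.1% in D7. Tcf7l1 held 24.2% and 24.1% in D2 and between 7.24% and 12% in the later libraries. Lef1 stood at 25.8% and 24.5% of the Tcf7 level per exon length in D7G, against 16.4% and 14.6% in D7, and the groups did not overlap. These percentages are lower by the second table, which holds fewer Lef1 counts. By that table Lef1 averaged 7.25 CPM per kb in D7G and 4.77 CPM per kb in D7. Tcf7 averaged 39.2 and 43.3 CPM per kb there. The shares were not computed by that table. The plot of shares shows the D2 and D7G libraries set apart from the rest. These shares are descriptions of the libraries and were not tested.

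**Figure D2:**
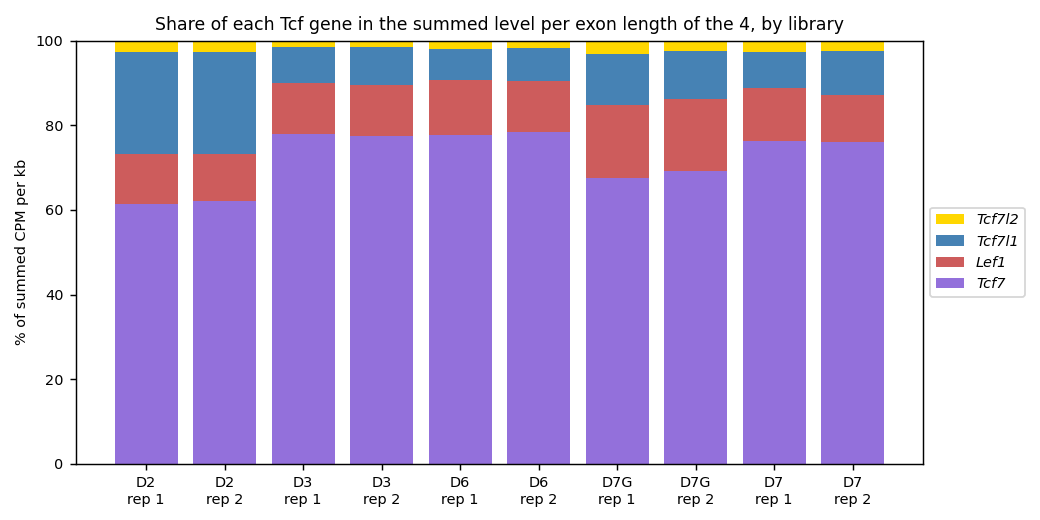
Share of Tcf7, Lef1, Tcf7l1 and Tcf7l2 (vertical axis, % of their summed CPM per kb of exon) in each of the 10 libraries (horizontal axis). Levels are from the counts by gene symbol. Tcf7l1 takes about the same share in both D2 libraries (24.2% and 24.1%) and less in all later ones, and Lef1 takes its highest shares in D7G (17.4% and 17.0%).

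Across the 9 genes and per exon length, Tcf7 was the most abundant in D2, D3 and D6, at 34.2, 53.2 and 53.3 CPM per kb. On day 7 the first place went to Notum, at 66.2 CPM per kb in D7G and 45.0 CPM per kb in D7. In D7 Tcf7 followed at 44.1 CPM per kb, within the spread of the libraries, and in D7G Nkd1 followed at 56.0 CPM per kb. The place of Notum depends on the table. By the second table and its library totals, a check added after the values were seen, Nkd1 was first in D7G (55.4 CPM per kb, with Notum at 47.2) and Tcf7 was first in D7 (43.3 CPM per kb, with Notum at 31.8).

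In D3 against D2, where CHIR99021 was given on day 2 and it is not said whether D2 was taken before or after it, all 9 genes rose, and 5 of them (Axin2, Notum, Nkd1, Dkk1 and Rnf43) by at least 2-fold. Of all tested genes, 29.6% were called higher, 8.67% higher by at least 2-fold and 28.9% lower. The median log2 fold change of the 9 was 1.47, against 0.00 over all genes tested. The other 4 genes, Apcdd1, Znrf3, Lef1 and Tcf7, rose by less than 1 on the log2 scale. All 9 calls held in each of the 20 alternatives. Markers of several cell types moved in this step. Of 6 NMP markers 5 were called higher, and of 4 endoderm markers 4 (63.5 to 73.3 CPM in D3, against 27.6 to 29.2 CPM in D2). Feeder fibroblast markers were higher for 4 of 6 genes (257 to 266 CPM in D3, against 125 to 156 CPM in D2), while 6 of 6 primed epiblast and 3 of 4 neural progenitor markers were lower. The part of these cells in the results was not tested.

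**Figure D3:**
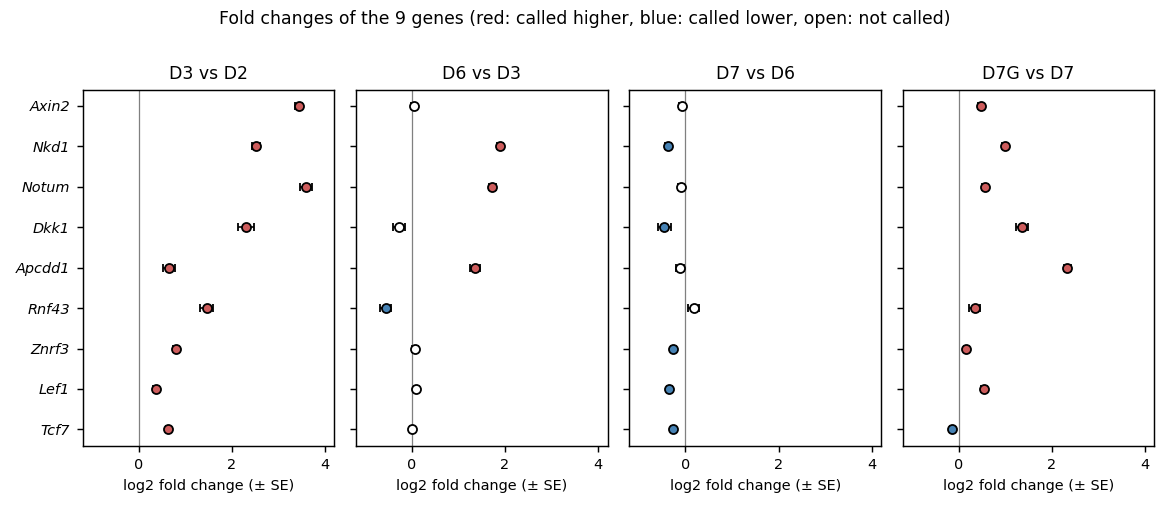
Log2 fold change of each gene ± SE (horizontal axis) in 4 comparisons (panels), with genes down the page. Red points were called higher, blue points lower and open points were not called. All 9 are red in D3 against D2, while D6 against D3 splits into 3 rises (Nkd1, Notum and Apcdd1), 1 fall (Rnf43) and 5 open points.

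In D6 against D3 the group came apart. Nkd1, Notum and Apcdd1 rose, each by at least 2-fold, Rnf43 fell, and 5 genes passed neither way. Among all tested genes 32.4% were called higher, 6.95% higher by at least 2-fold and 33.3% lower, so the share of the 9 called higher is near the background. The median of the 9 was 0.06, against -0.01 over all genes. Markers higher in this step were presomitic and somitic (3 of 5, with 2 lower; 60.2 to 75.4 CPM in D6, against 14.0 to 16.6 CPM in D3), neural progenitor (3 of 4, with 1 lower; 125 to 142 CPM in D6, against 49.6 to 52.3 CPM in D3) and neuron (3 of 4, with 1 lower). Feeder fibroblast markers were lower for 6 of 6 genes (17.0 to 18.8 CPM in D6, against 257 to 266 CPM in D3) and NMP markers for 5 of 6. Their part in the results was not tested. Axin2, Lef1, Tcf7 and Znrf3 each differed by 0.08 or less on the log2 scale.

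In D7 against D6, both without Gdf11, 5 genes fell (Nkd1, Lef1, Tcf7, Dkk1 and Znrf3), against 15.6% of all tested genes called lower. None of the 9 was called higher, where 20.5% of all genes were. In edgeR 0 had a higher level at an unadjusted p under 0.05, and DESeq2 and limma-voom also called 0 higher. The falls were small, between -0.26 and -0.45, and the median of the 9 was -0.26, against 0.04 over all genes. The count of 5 ranged from 4 to 7 over the alternatives and was 4 without D6 replicate 2 or D7 replicate 2. NMP markers were lower for 4 of 6 genes and higher for 1 (368 to 372 CPM in D7, against 539 to 550 CPM in D6), and presomitic and somitic markers were lower for 4 of 5 (26.7 to 27.6 CPM in D7, against 60.2 to 75.4 CPM in D6). Higher were neuron markers for 4 of 4 genes (85.5 to 90.9 CPM in D7, against 49.8 to 52.5 CPM in D6), neural progenitor markers for 3 of 4 and feeder fibroblast markers for 4 of 6 (50.5 to 51.2 CPM in D7, against 17.0 to 18.8 CPM in D6). Their part in the results was not tested.

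In D7G against D7, the test of 24 h of Gdf11, 8 genes rose and Tcf7 fell. Background shares were 22.5% called higher and 18.2% called lower. Apcdd1 and Dkk1 rose by at least 2-fold, where 4.25% of all tested genes did, and Nkd1 nearly so. The median of the 9 was 0.55, against 0.02 over all genes. Leaving out libraries or changing the settings left 6 to 8 genes called higher, the calls of Rnf43 and Znrf3 being those lost. D7G and D6 were not part of a separate test here, but for all members except Tcf7, Rnf43 and Znrf3 the D7G libraries were above every other library of the series.

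Markers of other cell types also differed between D7G and D7. Feeder fibroblast markers summed to 348 and 378 CPM in D7G, against 51.2 and 50.5 CPM in D7, and 5 of 6 were called higher. Col1a1, a matrix collagen that many mesenchymal cells make, averaged 241 CPM in D7G and 27.3 CPM in D7, and Lum averaged 15.2 CPM in D7G and 1.12 CPM in D7. The fibroblast markers Dcn and Thy1 were near 1 CPM or lower in both groups, and none of the 6 was at 0. Neuron markers were higher for 3 of 4 genes (171 to 184 CPM in D7G, against 85.5 to 90.9 CPM in D7) and endoderm markers for 4 of 4 (103 to 129 CPM in D7G, against 78 to 83.8 CPM in D7). Of 6 NMP markers, 1 was higher and 3 were lower, with sums of 308 and 314 CPM in D7G, against 372 and 368 CPM in D7. Presomitic and somitic markers were higher for 1 of 5 genes and lower for 2 (13.4 and 15.2 CPM in D7G, against 27.6 and 26.7 CPM in D7). Neural progenitor markers were lower for 3 of 4 genes and higher for 1 (95.5 and 98.1 CPM in D7G, against 164 and 167 CPM in D7), and primed epiblast markers were higher for 4 of 6 (264 and 235 CPM in D7G, against 208 and 205 CPM in D7). Their part in the results was not tested.

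Over the whole course without Gdf11, D7 against D2, 8 genes were higher and Lef1 was not called, where 34.2% of all tested genes were called higher. This comparison shares the D2 libraries with the first step and the D7 libraries with the last steps, so it is no separate evidence. The folds over D2 were 37.2 for Notum, 16.3 for Nkd1, 10.6 for Axin2, 3.74 for Apcdd1 and 2.99 for Dkk1. Rnf43 (2.1-fold), Znrf3 (1.53-fold) and Tcf7 (1.29-fold) had the smaller rises.

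Other genes of the pathway were counted from 7 lists by role. Their counts are to be read against all tested genes, of which 29.6% rose and 28.9% fell in D3 against D2, 32.4% rose and 33.3% fell in D6 against D3, 20.5% rose and 15.6% fell in D7 against D6, and 22.5% rose and 18.2% fell in D7G against D7. Of 18 tested Wnt ligands, 13 rose in D3 against D2, among them Wnt3a (7.58 ± 0.23), a ligand of the posterior embryo, and 9 fell in D6 against D3, Wnt3a again among them (-5.03 ± 0.17). In D7G against D7, 7 ligands rose, such as Wnt5a, which signals mainly outside the β-catenin branch (25.3 ± 2.50 CPM in D7G and 11.6 ± 0.670 CPM in D7, SD, n = 2). Of 14 Frizzled receptors and co-receptors, 6 rose and 6 fell in D3 against D2: Fzd10 rose by 4.61 ± 0.07 and Fzd7 fell by 1.34. In D6 against D3, 11 of them rose and 3 fell, and in D7G against D7, 4 rose and 5 fell, with Fzd9 at -0.97 ± 0.09.

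R-spondins and their Lgr receptors, which hold back Rnf43 and Znrf3, gave 6 tested genes. Rspo3 averaged 17.8 ± 0.959 CPM in D3 and 0.312 ± 0.0220 CPM in D2 (SD, n = 2). It fell in D6 against D3 (-1.94 ± 0.10) and in D7 against D6 (-0.81 ± 0.14), and it was the 1 gene of its list called with Gdf11, where it rose by 1.17 ± 0.13 (adjusted p = 6.68e-07). Without D7G replicate 2, 2 genes of the list were called higher. Lgr5, a Wnt target itself, rose in D3 against D2 (2.85 ± 0.25) and again in D6 against D3 (0.76 ± 0.15), unlike Rnf43.

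Among 13 other secreted antagonists and Kremens, 7 rose and 3 fell in D3 against D2, 3 rose and 6 fell in D6 against D3, and 7 rose in D7 against D6. With Gdf11, 5 rose and 3 fell. Dkk2, a relative of Dkk1, had 11.4 ± 0.352 CPM in D7G and 1.95 ± 0.0762 CPM in D7 (SD, n = 2), a rise of 2.54 ± 0.14 (adjusted p = 1.54e-11) that was wider than that of Dkk1. Dkk3, of the same family, rose by 1.21 ± 0.12. Sfrp2, which encodes a secreted Frizzled-like antagonist, fell with Gdf11 (-0.90 ± 0.05) and Sfrp1 by less (-0.29 ± 0.05).

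Of 11 genes of the destruction complex and the Dishevelled family, 3 rose and 5 fell in D3 against D2, and the 5 were 2 without D2 replicate 2 and 3 without D3 replicate 1 or 2. In D6 against D3 6 rose and 1 fell, and with Gdf11 4 rose and 1 fell. None of those named moved by 1 or more on the log2 scale, in contrast to Axin2 in D3 against D2: Amer1, for example, rose by 0.79 ± 0.05 in D6 against D3. The list of nuclear partners held 14 tested genes, and Ctnnb1, Tcf7l1 and Tcf7l2, described above, are among them. Of these 14, 8 rose and 4 fell in D3 against D2. With Gdf11 9 rose, including Ctnnb1, Tcf7l1, Bcl9l and Tle4 (0.39 ± 0.05 each for Bcl9l and Tle4). In D6 against D3 8 rose, or 5 without D3 replicate 1.

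Among 12 other Wnt target genes, 8 rose and 1 fell in D3 against D2. Those that rose included Sp5 (8.59 ± 0.17) and Cdx2 (8.02 ± 0.09), both transcription factors of the posterior embryo. Nkd2, the paralogue of Nkd1, was the 1 that fell (-0.35 ± 0.08). In D7 against D6, 10 of 12 fell, with Cdx2 at -1.41 ± 0.05. With Gdf11 5 rose and 6 fell: Nkd2 had 65.9 ± 0.164 CPM in D7G and 21.3 ± 0.903 CPM in D7 (SD, n = 2) and rose by 1.63 ± 0.06, whereas Cdx4 (-1.51 ± 0.06) and Myc (-1.01 ± 0.07) fell. Several lists had counts in D7 against D6 that moved when a library was left out. The count of 3 Frizzled genes called higher was 1 without D6 replicate 2, D7 replicate 1 or D7 replicate 2, and the count of 4 destruction complex genes called higher was 2 without D6 replicate 2.

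**Figure D4:**
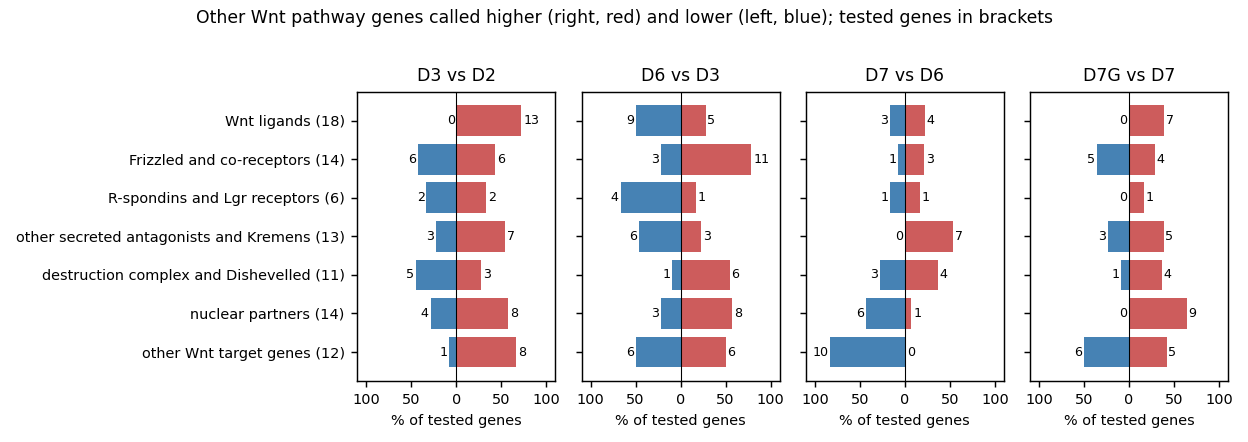
Percentage of the tested genes of each of the 7 pathway lists (rows, number tested in brackets) called higher (right, red) and lower (left, blue) in 4 comparisons (panels); numbers beside the bars are gene counts. Ligands are mostly red in D3 against D2 (13 of 18), the other target genes are mostly blue in D7 against D6 (10 of 12), and the nuclear partners are mostly red in D7G against D7 (9 of 14).

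The genes with courses most like each of the 9 were found by the root-mean-square difference of centred log2 CPM over the 5 group means, among 11587 candidates with at least 5 CPM in a group. For Axin2 these were Tmprss2 (0.16), Pla2g7 (0.24) and the R-spondin receptor Lgr5 (0.27). Notum was nearest to Plagl1 (0.16), Hoxd8 (0.18) and Hoxd4 (0.26), and Nkd1 to Egr3 (0.13), the Bmp antagonist Nog (0.16) and Igf2 (0.23). Dkk1 lay nearest to Clstn2 (0.18), Foxa2 (0.27) and Angptl2 (0.30), and Apcdd1 to Fam46c (0.19), Mylk (0.20) and Runx1 (0.23). Nearer matches were found for the other 4 genes. For Lef1 these were H13 (0.06), Ripk1 (0.08) and Hadhb (0.08), and for Tcf7 Coa5 (0.04), Dyrk3 (0.04) and Iba57 (0.06). Znrf3 lay nearest to Tdrd3 (0.04), Mum1l1 (0.06) and Oat (0.06), and Rnf43 to Tfeb (0.05) and Serpinb6c (0.10). The distance is not scaled to the range of a gene, so genes that vary little lie nearer to others of narrow range. Porcn, which encodes the enzyme that adds the lipid to Wnt ligands, was the third nearest to Rnf43 (0.10).

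Within the 9, the closest pairs were Tcf7 and Znrf3 (0.18), Lef1 and Znrf3 (0.20), Lef1 and Tcf7 (0.27), and Rnf43 and Znrf3 (0.29). Nkd1 and Notum, which climbed together, were 0.41 apart. Apcdd1 was the farthest from the rest, its nearest being Nkd1 at 0.90, and Axin2 was 0.62 from Dkk1. These distances rest on the same 5 groups, are not scaled to the range of a gene and carry no test.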

How the data were processed

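The members and the gene lists were chosen with earlier results of these data known. The authors deposited 3 tables: raw counts by gene symbol, raw counts by Ensembl identifier, and 14983 selected genes. The deposited table of selected genes also gives CPM, log2 changes relative to D2, and p-values with false discovery rates. All 9 genes are in each table, and its deposited counts equal those by symbol. The tools named, per the submitters' processing notes, are featureCounts 1.6.3, HISAT2 2.1.0, STAR and limma, with the mm10 build. Their roles, counting options and use of strand are not given in the sources used here. Coordinates are those of the deposited count table (mm10), except for the promoter windows, which are from RefSeq (GRCm38.p6).

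Tests were run on the deposited counts by symbol in edgeR 4.0.16 under R 4.3.3 (quasi-likelihood, TMM, filterByExpr). All 10 libraries entered with 1 coefficient per group, with 5 residual and 14.3 prior degrees of freedom and a coefficient of variation of 3.34% between replicates. The pathway genes named are, per list and comparison, up to 2 called genes in each direction with the largest change, at least 5 CPM in a group and libraries that do not overlap. Tcf7l1, Tcf7l2, Ctnnb1 and the 3 genes most like each member are also named. Alternatives were DESeq2 1.42.0, limma-voom 3.58.1, library totals, upper-quartile and relative log expression factors, the second table, no filter, a minimum of 1 CPM in 2 libraries, a replicate block, only the libraries compared, and each library left out in turn. With a library left out, its group keeps 1, which is assumed to vary like the others. Replicate numbers were not used to pair the samples in the main fit. The numbers alone do not show whether same-numbered libraries belong together.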

Additional observations from a re-analysis of the deposited data

How the results depend on the processing

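Of 900 fold changes of the 9 genes over 20 alternatives and 5 comparisons, 875 kept their call, 14 lost a call and 11 gained one. Of those called in either fit, 0 reversed. Some differences called in neither fit changed sign and are counted as kept, such as Axin2 in D6 against D3 (0.03, lowest -0.04). The count of the 9 genes called lower in D6 against D3, 1, became 2 (Rnf43 and Dkk1) under library-total and upper-quartile scaling, and ranged from 1 to 2 as each library was left out. The count of all genes called higher in D7 against D6, 3853, ranged from 2294 (without D7 replicate 2) to 3607 with a library left out. Of 1400 counts over the pathway lists, 1344 stayed within 1.5 times. Same-numbered libraries did not deviate together (correlations of -0.04 to 0.05 over 10 pairs of groups), and the replicate block gave the same counts for the 9 genes: 9 higher in D3 against D2, 3 higher and 1 lower in D6 against D3, 5 lower in D7 against D6, 8 higher and 1 lower in D7G against D7, and 8 higher in D7 against D2. With 2 libraries a group, the SE and p values of every gene rest on the spread shared over groups. This holds for small differences such as those of Rnf43 and Znrf3 with Gdf11, and for the wider rises too. The D7G pair was the least alike, with a chi-square of 4.19 per gene on average. D6 followed at 3.66, then D7 at 2.86, D3 at 2.13 and D2 at 1.92. Genes with wider rises also differed within the D7G pair, such as Nkd1 (232 and 279 CPM). The cause of each changed call was not tested.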

Other observations

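The antisense transcript Notumos, which shares 708 exon bases with Notum, had 2 and 6 counts in D2, 36 and 26 counts in D3, and 155 and 181 counts in D6. On day 7 it had 241 and 264 counts in D7G, against 168 and 200 counts in D7, so its libraries fell in the order of D2, D3, D6, D7 and D7G by their lowest and highest counts, with D6 and D7 overlapping. Gm43352, antisense to Lef1, had between 8 and 22 counts in every library. Gm11670, which shares 3.8% of the Axin2 exon bases, had at most 3 counts.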
